A study of Mus musculus with 16 samples.

Results

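The 8 genes described here make or use small RNAs: Drosha, Dgcr8, Xpo5, Dicer1, Tarbp2, Prkra, Tnrc6a and Tnrc6b. They are a list of names, and no threshold on a measured value was used to admit them. All 8 were found among the 25965 genes of the expression table. Each was above the filter of 0.5 RPKM in at least 2 libraries that admitted 10518 genes to the tests. Prkra passed it only through the 10–30 and 40–45 μm libraries. RPKM is a read number scaled to the exon length of the gene and to the reads of the library.

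The study followed mouse oocytes through their growth, with expression by strand-specific total RNA-seq and CpG methylation by bisulphite sequencing. The oocytes were wild type, came from C57BL/6 mice (C57BL/6Babr in the study's methods), and were sorted by diameter, and each library was made from a pool of oocytes, so that neither animals nor single cells can be followed. RNA-seq libraries were made in duplicate (A and B) from oocytes with diameters of 10–30 μm, of 40–45 μm, of 50–55 μm and of 60–65 μm, and fully grown oocytes at the germinal vesicle stage (GV) gave 1 column of values. Reduced representation bisulphite sequencing (RRBS), which reads mostly CpG-rich DNA, was done in duplicate in each class from 40–45 μm upwards, and post-bisulphite adapter tagging (PBAT), which reads the whole genome, gave 1 library of 60–65 μm oocytes. By the study's methods the mice were older for the larger classes, so that oocyte size and the age of the animal cannot be told apart. Since nothing in the labels says that A and B came from separate animals, p-values measure the spread between these pools only.

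MicroRNAs are cut from hairpin transcripts in a fixed order. In the nucleus, the RNase III enzyme Drosha and its RNA-binding partner Dgcr8 cut the hairpin out of the primary transcript, and exportin-5, the product of Xpo5, carries it to the cytoplasm, where Dicer cuts it again and an Argonaute protein takes up a strand. Endogenous siRNAs (endo-siRNAs) come from long RNA duplexes, need Dicer but neither Drosha nor Dgcr8, and are abundant in mouse oocytes, in which Dicer is needed for meiosis while Dgcr8 is dispensable and microRNA activity is weak. Mouse oocytes are also known to make a shortened Dicer from a promoter in a retrotransposon within intron 6 of Dicer1.

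The promoters of Dicer1, Drosha and Prkra are shown because these genes had the highest level among the members, an uncalled change and the largest change, respectively, while their starts were alike in carrying little methylation. The sequences are from RefSeq (GRCm38.p6), run from 250 bases before to 50 bases after the annotated start, 5′ to 3′ on the gene's strand, and have the CpG dinucleotides in capitals. Dicer1 lies on the minus strand at chr12:104751903-104752202, Drosha on the plus strand at chr15:12824565-12824864 and Prkra on the minus strand at chr2:76647978-76648277.
Dicer1: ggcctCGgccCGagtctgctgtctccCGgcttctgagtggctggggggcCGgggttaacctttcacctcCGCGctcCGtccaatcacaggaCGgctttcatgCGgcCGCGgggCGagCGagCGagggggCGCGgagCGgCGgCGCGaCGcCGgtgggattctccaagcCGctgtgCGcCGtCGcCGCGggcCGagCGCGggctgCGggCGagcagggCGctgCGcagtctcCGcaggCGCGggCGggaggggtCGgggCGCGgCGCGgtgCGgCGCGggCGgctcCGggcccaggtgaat
Drosha: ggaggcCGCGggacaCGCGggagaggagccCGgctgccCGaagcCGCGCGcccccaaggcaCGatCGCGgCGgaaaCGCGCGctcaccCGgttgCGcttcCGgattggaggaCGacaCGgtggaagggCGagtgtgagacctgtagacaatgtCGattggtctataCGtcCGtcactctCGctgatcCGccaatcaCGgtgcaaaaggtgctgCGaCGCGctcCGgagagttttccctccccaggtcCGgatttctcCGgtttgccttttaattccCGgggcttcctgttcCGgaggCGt
Prkra: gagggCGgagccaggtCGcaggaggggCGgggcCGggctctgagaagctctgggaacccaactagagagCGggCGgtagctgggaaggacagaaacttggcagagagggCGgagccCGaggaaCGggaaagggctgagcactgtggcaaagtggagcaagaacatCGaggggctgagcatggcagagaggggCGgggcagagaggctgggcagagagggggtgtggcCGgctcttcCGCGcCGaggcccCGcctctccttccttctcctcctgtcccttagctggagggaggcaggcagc

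The Dicer1 promoter held 49 CpGs, the Drosha promoter 37 and the Prkra promoter 16. Of 32851 promoters of the same length, 99.0% had fewer CpGs than Dicer1, 94.4% fewer than Drosha and 67.0% fewer than Prkra, and the median was 7. In the PBAT library, 8 of 562 calls in the Dicer1 promoter were methylated, as were 0 of 309 in that of Drosha and 0 of 17 in that of Prkra, where only 3 CpG cytosines reached the minimum of 5 reads. By RRBS, methylated calls in the same 300 bases were 0 to 31 of 545 to 952 per library at Dicer1, with the 31 of 952 in B of 50–55 μm, and 0 to 21 of 889 to 1514 at Drosha, with the 21 of 1299 in B of 40–45 μm. The Prkra promoter had 4 methylated calls of 134 in A of 40–45 μm, 1 of 124 in B, and 0 of 102 to 316 in the 4 libraries of larger oocytes.

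The libraries looked like oocytes by their marker genes. The summed level of 10 oocyte markers, such as Zp3 and Gdf9, was 2492 to 3743 RPKM in the 9 columns, whereas 9 granulosa cell markers summed to 0.791 to 4.09 RPKM, 6 theca and stroma markers to 0.397 to 2.76 RPKM and 4 blood markers to 0.276 to 0.542 RPKM. No marker was at 0 in all 9 columns. The granulosa sum was lowest in the 10–30 μm class (0.807 and 0.791 RPKM) and highest in 60–65 μm (3.03 and 2.59 RPKM) and GV oocytes. Cyp19a1 was the highest of its members there, at 2.53 RPKM in GV oocytes. In GV oocytes Cyp19a1, Kitl and Fshr were above 60–65 μm and Hsd17b1 lay between A and B. Amh, Foxl2, Fst, Inha and Inhbb were below 60–65 μm. The theca and stroma sum was highest in 10–30 μm oocytes (2.76 and 2.02 RPKM), mostly from Col1a1 and Col1a2. Dcn and Pdgfra were also highest there, while Cyp17a1 and Star were lowest. The part of these differences in the changes below was not tested. In pools of this kind, fewer cells of a type and less RNA per cell cannot be told apart. Sequencing depth relative to library B of 10–30 μm was 0.625 to 1.25, and library A was the shallower in each of the 4 growing classes.

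Between the smallest and the largest growing oocytes, Dgcr8, Tnrc6b, Xpo5 and Dicer1 rose and Prkra fell, while Drosha, Tarbp2 and Tnrc6a did not pass the test. Thus 4 of the 8 members were higher, where 32.4% of all tested genes were, and 1 was lower, where 30.9% were, so that the share of members called was close to the background. The median log2 change was 0.26 over the members and 0.02 over all genes tested. Fewer members were called between neighbouring classes. From 10–30 to 40–45 μm, 2 members were higher (Xpo5 and Dicer1; background 16.1%) and 1 lower (Prkra; background 7.84%). From 40–45 to 50–55 μm, 0 were higher by limma (background 5.18%) and Prkra alone was lower (background 4.01%). This background depended on the fit, with 967 genes called in the main fit, 549 with no filter and 1924 with a replicate block. In this step 3066 of the 10518 genes had an unadjusted p under 0.05, and 3 of them were members (Prkra, Dgcr8 and Tnrc6b). Dgcr8 was called higher by DESeq2 (adjusted p = 0.023), which called 1605 genes, while edgeR called 951 genes and no member higher. From 50–55 to 60–65 μm, no member and no other gene was called by the main limma fit in either direction (background 0%), while 1485 genes, 0 of them members, had an unadjusted p under 0.05. Limma called 8 genes with a pseudocount of 1 and 228 with a replicate block, with no member among them. In the same step edgeR called 0 genes and DESeq2 254, with 0 members among them. The values of A and B did not overlap between 10–30 and 60–65 μm for 7 members, the exception being Tnrc6a, and this was so for 82.1% of all genes tested.

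**Figure D1:**
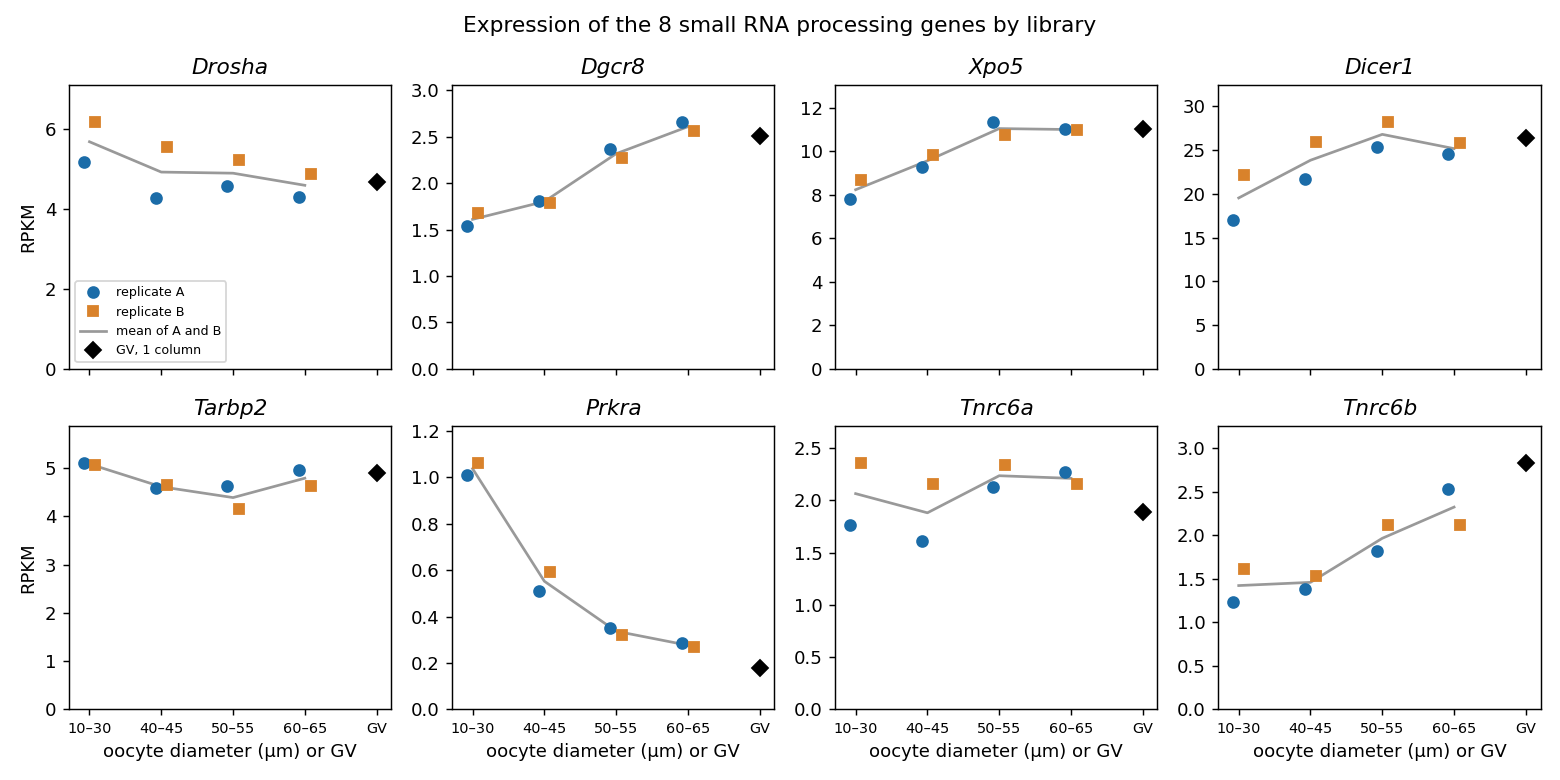
Level of each of the 8 genes in RPKM (y axis, from 0, scaled per gene) in each library, by oocyte diameter in μm and in GV oocytes (x axis), where circles are replicate A, squares replicate B, the grey line their mean and the diamond the single GV column. Prkra goes down from 1.01 and 1.06 RPKM to 0.177 RPKM, Dgcr8 and Tnrc6b go up, and Dicer1 lies at 16.9 RPKM or above in every library.

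Drosha, the nuclear RNase III, lies at chr15:12824815-12935290 on the plus strand of GRCm38, and its level was 5.18 RPKM in A and 6.17 RPKM in B of 10–30 μm, 4.28 and 5.56 RPKM in 40–45 μm, 4.56 and 5.22 RPKM in 50–55 μm, 4.30 and 4.88 RPKM in 60–65 μm and 4.68 RPKM in GV oocytes. Library B exceeded A in each class. Between the ends of growth the values did not overlap, yet the log2 difference of −0.28 ± 0.14 (SE, n = 2 per class) had an adjusted p of 0.11 (limma). Across 18 alternative settings and left-out libraries this difference ranged from −0.38 to −0.18 on the log2 scale. It was called when the replicate letter was added to the fit as a block (adjusted p = 0.018, limma). The labels do not say that A and B mark a shared batch.

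Dgcr8, which recognises the hairpin and holds Drosha to it, lies at chr16:18253948-18289249 on the minus strand. It was measured at 1.54 and 1.68 RPKM in 10–30 μm, 1.81 and 1.79 RPKM in 40–45 μm, 2.36 and 2.27 RPKM in 50–55 μm, 2.66 and 2.56 RPKM in 60–65 μm and 2.51 RPKM in GV oocytes. Each class lay above the preceding one without overlap. The increase over growth was 1.61-fold (log2 change 0.68 ± 0.09 SE, adjusted p = 0.00033, limma), and it passed in all 18 alternatives. No step between neighbouring classes passed on its own, with adjusted p of 0.065, 0.074 and 0.65. The gene overlaps Trmt2a, which is on the opposite strand and had a mean of 1.69 RPKM. The Drosha to Dgcr8 ratio of RPKM within a library accordingly went from 3.36 and 3.68 in 10–30 μm to 1.62 and 1.91 in 60–65 μm, with 1.86 in GV oocytes.

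Xpo5, encoding the exporter of hairpin precursors, lies at chr17:46202855-46242299 on the plus strand and was more abundant per length than Drosha or Dgcr8 in every library. Its level was 7.79 and 8.69 RPKM in 10–30 μm, 9.29 and 9.85 RPKM in 40–45 μm, 11.4 and 10.7 RPKM in 50–55 μm, 11.02 and 10.99 RPKM in 60–65 μm and 11.03 RPKM in GV oocytes. The 10–30 μm libraries were below all others and the last classes were alike. Xpo5 rose 1.35-fold over growth (log2 change 0.44 ± 0.09 SE, adjusted p = 0.0026, limma), in all 18 alternatives. The first step, a 1.27-fold increase (adjusted p = 0.025, limma), was no longer called on unscaled RPKM (adjusted p = 0.13) or when any library other than B of 10–30 μm was left out (adjusted p 0.055 to 0.092), over a range of 0.017 to 0.13 for all alternatives.

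Dicer1, whose product cuts microRNA precursors and long duplexes alike, lies at chr12:104687742-104751952 on the minus strand and was the most abundant member, with a mean above that of 94.4% of tested genes. Its level was 16.9 and 22.1 RPKM in 10–30 μm, 21.7 and 25.9 RPKM in 40–45 μm, 25.4 and 28.2 RPKM in 50–55 μm, 24.6 and 25.8 RPKM in 60–65 μm and 26.4 RPKM in GV oocytes. Library A of 10–30 μm stood lowest, library B exceeded A in every class, and the first classes overlapped. Dicer1 rose 1.32-fold from 10–30 to 60–65 μm (log2 change 0.40 ± 0.13 SE, adjusted p = 0.027, limma). This call was lost without A of 10–30 μm (log2 change 0.24, adjusted p = 0.14), without A or B of 60–65 μm (adjusted p = 0.076 and 0.13) and on unscaled RPKM (adjusted p = 0.050), within a range of 0.0040 to 0.14 over 18 alternatives. The first step (log2 change 0.42 ± 0.13 SE) passed barely, with an adjusted p of 0.049, and lost its call in 15 of 18 alternatives, in which the adjusted p reached 0.22 and the log2 change fell to 0.26 without A of 10–30 μm. Values counted over the whole gene do not separate the full-length from the shortened Dicer transcript.

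Within each library, the ratio of Dicer1 to Drosha was 3.27 and 3.58 in 10–30 μm, 5.07 and 4.67 in 40–45 μm, 5.56 and 5.41 in 50–55 μm, 5.71 and 5.28 in 60–65 μm and 5.65 in GV oocytes. The 10–30 μm libraries were set apart from all later ones, and in the 3 smaller classes A and B were closer in the ratio than in either gene. Dicer1 to Xpo5 held between 2.18 and 2.63 with overlapping classes, and Dicer1 to Dgcr8 was 10.99 and 13.2 in 10–30 μm, 11.99 and 14.5 in 40–45 μm, 10.7 and 12.4 in 50–55 μm, 9.23 and 10.1 in 60–65 μm and 10.5 in GV oocytes. Thus the level of Dicer1, which the microRNA and endo-siRNA branches share, was higher relative to Drosha in every later library than in 10–30 μm, whereas relative to Xpo5 all later classes overlapped 10–30 μm. Relative to Dgcr8 it overlapped 10–30 μm in the 40–45 and 50–55 μm classes and was lower than in either 10–30 μm library in 60–65 μm and GV oocytes. These ratios were not tested.

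**Figure D2:**
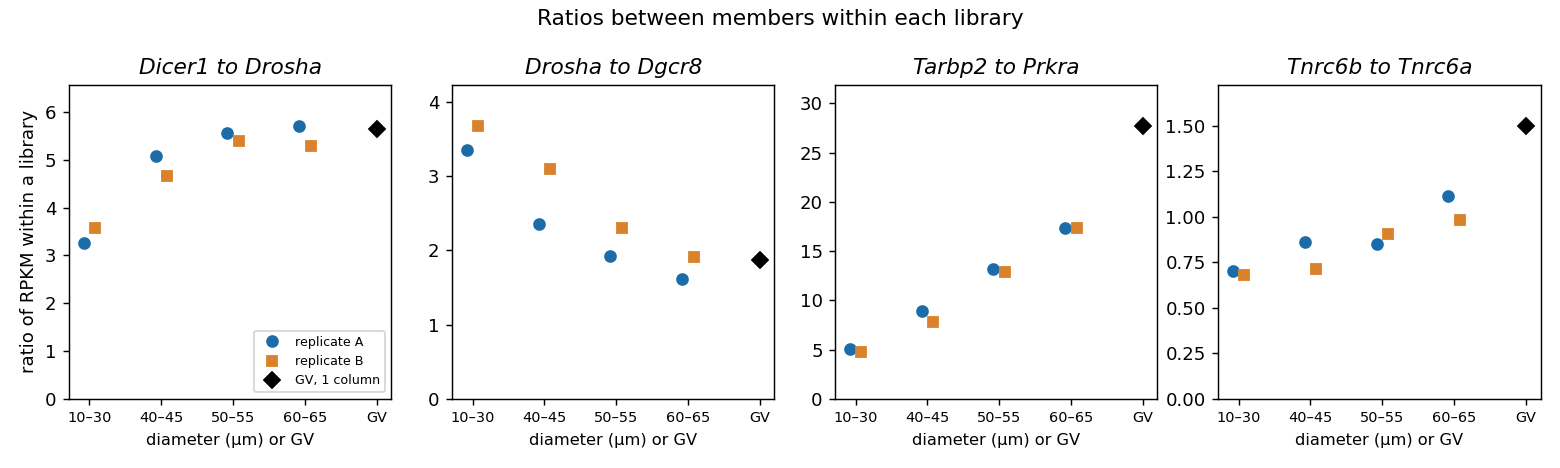
Ratio of RPKM between pairs of members within a library (y axis, from 0) by oocyte diameter in μm and in GV oocytes (x axis), where circles are replicate A, squares replicate B and diamonds the single GV column. Tarbp2 to Prkra goes from 5.05 and 4.76 to 27.7, and Dicer1 to Drosha from 3.27 and 3.58 to above 5 in 50–55 μm oocytes and later.

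The Dicer partners Tarbp2 and Prkra, which encode the related double-stranded RNA-binding proteins TRBP and PACT, are described next, and the difference between them was not tested. Tarbp2, at chr15:102518192-102523676 on the plus strand, was measured at 5.11 and 5.06 RPKM in 10–30 μm, 4.59 and 4.64 RPKM in 40–45 μm, 4.63 and 4.16 RPKM in 50–55 μm, 4.96 and 4.63 RPKM in 60–65 μm and 4.89 RPKM in GV oocytes. These values span 4.16 to 5.11 RPKM with no steady course, and the log2 difference over growth was −0.07 ± 0.10 (SE, adjusted p = 0.57, limma).

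Prkra, at chr2:76629898-76648015 on the minus strand, was the least abundant member and the one that changed most. It was measured at 1.01 and 1.06 RPKM in 10–30 μm, 0.512 and 0.594 RPKM in 40–45 μm, 0.352 and 0.322 RPKM in 50–55 μm, 0.286 and 0.267 RPKM in 60–65 μm and 0.177 RPKM in GV oocytes. Every class lay below the one before it, and A and B were close to each other throughout. The decrease over growth was 2.97-fold on the log2(RPKM + 0.1) scale (log2 change −1.57 ± 0.12 SE, adjusted p = 1.8e-05, limma). Because the pseudocount is large beside these levels, the log2 change was −0.65 with a pseudocount of 1 and −1.91 with edgeR on recovered reads, and the decrease was called in all 18 alternatives. It was also called from 10–30 to 40–45 μm (log2 change −0.70 ± 0.12 SE, adjusted p = 0.0050, limma), again in all 18. From 40–45 to 50–55 μm (log2 change −0.62 ± 0.12 SE, adjusted p = 0.021, limma) the call was lost without B of 40–45 μm (adjusted p = 0.12), without A or B of 50–55 μm (adjusted p = 0.15 and 0.11) and with no filter (adjusted p = 0.052), over a range of 0.011 to 0.15. The counts behind Prkra were the lowest of the members, at 61 to 343 per library, against 1117 or more for any other member. Prkra was admitted to the tests only through the smaller classes, in which it was high. With no filter the decrease over growth had an adjusted p of 0.00017 (limma).

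Tarbp2 to Prkra within a library went from 5.05 and 4.76 in 10–30 μm to 8.96 and 7.82 in 40–45 μm, 13.1 and 12.9 in 50–55 μm and 17.3 in A and B of 60–65 μm, and was 27.7 in GV oocytes. The classes did not overlap at any step. The summed theca and stroma markers, mostly Col1a1 and Col1a2, were highest in the 10–30 μm libraries, as Prkra was. Within classes the sum was higher in A than in B throughout. Prkra was lower in A of 10–30 and 40–45 μm and higher in A of 50–55 and 60–65 μm. The part of the marker differences in the Prkra values was not tested.

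Tnrc6a and Tnrc6b encode GW182 proteins, which bind Argonaute and bring in the deadenylases that silence microRNA targets. Tnrc6a, at chr7:123123885-123195288 on the plus strand, was measured at 1.77 and 2.36 RPKM in 10–30 μm, 1.61 and 2.15 RPKM in 40–45 μm, 2.13 and 2.34 RPKM in 50–55 μm, 2.27 and 2.15 RPKM in 60–65 μm and 1.89 RPKM in GV oocytes. All classes overlapped between 10–30 and 60–65 μm, and the log2 difference was 0.13 ± 0.15 (SE, adjusted p = 0.49, limma). Tnrc6b, at chr15:80711319-80941086 on the plus strand, was measured at 1.24 and 1.61 RPKM in 10–30 μm, 1.38 and 1.54 RPKM in 40–45 μm, 1.81 and 2.12 RPKM in 50–55 μm, 2.53 and 2.12 RPKM in 60–65 μm and 2.83 RPKM in GV oocytes. Its classes of 10–30 and 40–45 μm overlapped, and its highest value was in GV oocytes. Tnrc6b rose 1.62-fold over growth (log2 change 0.69 ± 0.14 SE, adjusted p = 0.0028, limma), in all 18 alternatives, while none of its single steps was called. The Tnrc6b to Tnrc6a ratio was 0.699 and 0.681 in 10–30 μm, 1.11 and 0.984 in 60–65 μm and 1.498 in GV oocytes, so that in GV oocytes Tnrc6b was the more abundant of the pair per length.

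**Figure D3:**
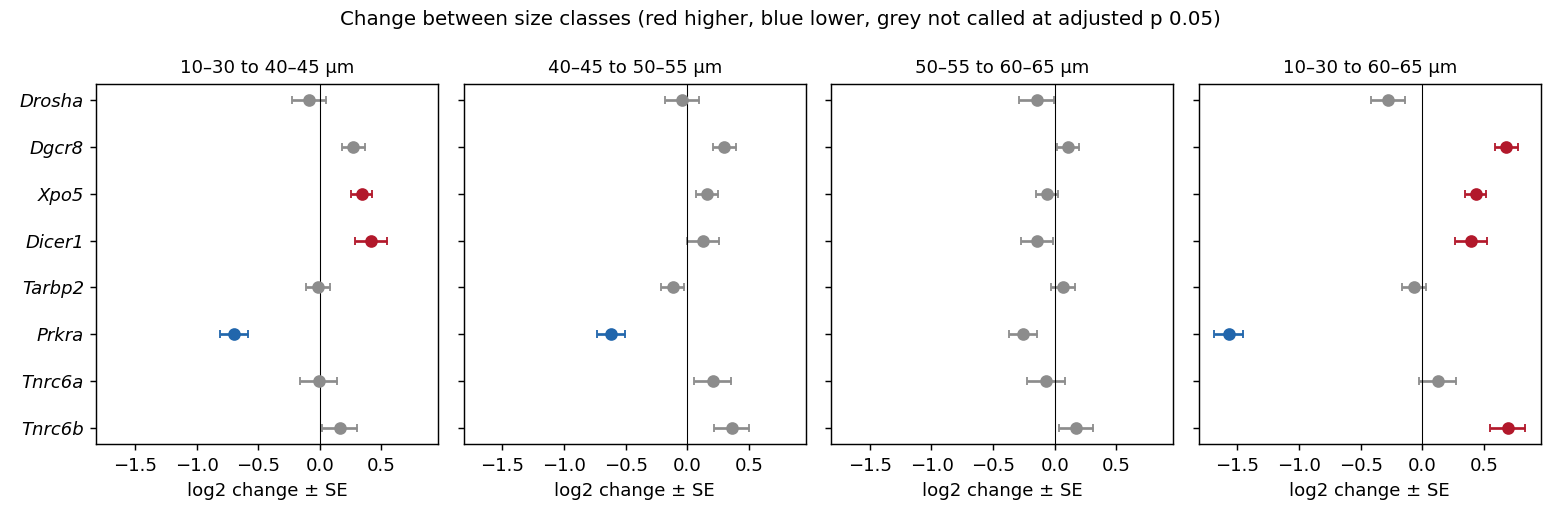
log2 change of the 8 genes with its standard error (x axis, limma on log2(scaled RPKM + 0.1), 2 libraries per class) for each step of growth and for the whole of it, where red points were called higher, blue lower and grey not at an adjusted p of 0.05. Prkra is the one gene called lower, at −1.57 over the whole of growth, and no gene is called from 50–55 to 60–65 μm.

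GV oocytes gave 1 column and were not tested. Relative to the mean of 60–65 μm after scaling, Prkra was at 0.656, under the 5th percentile of all tested genes (0.693), Tnrc6b was at 1.25, and the other 6 members were between 0.879 and 1.08, where the median gene was at 1.00. In RPKM as deposited, without scaling, Dicer1, Xpo5 and Tnrc6b were above A and B of 60–65 μm, and Prkra, Tnrc6a and Dgcr8 below.

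The genes most like Dicer1 across the 9 columns, by Pearson's r of log2(scaled RPKM + 0.1) among 8508 genes with a mean of at least 1 RPKM, were Sh3d19 (r = 0.990), Lrrc16a (0.985), Pacsin2 (0.982), Ccnyl1 (0.979) and Igf2bp2 (0.979). Those most like Drosha were Ulk2 (r = 0.982), Brd2 (0.955), Pef1 (0.953), Fbxo38 (0.948) and 1810055G02Rik (0.946). Among the members, Dicer1 and Xpo5 had an r of 0.901, Dgcr8 and Prkra an r of −0.976, and Dicer1 and Drosha an r of −0.076. These describe 9 columns that share size classes and depth, and they carry no test.

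Argonaute transcripts, which the products of these genes load and use, were scarce in the table. Of the 4 Argonaute genes, listed there by their older names (Eif2c), 1 passed the filter. Ago3 was between 0.966 and 1.87 RPKM and rose 1.28-fold over growth (log2 change 0.36 ± 0.10 SE, adjusted p = 0.011, limma). Ago2, which encodes the Argonaute that can slice its target, was between 0.216 and 0.419 RPKM, Ago4 between 0.0708 and 0.232 RPKM and Ago1 between 0.0410 and 0.177 RPKM, so that Dicer1 exceeded each Argonaute gene per length in every library.

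Of 12 tested cofactors of processing, 3 rose over growth, 5 fell and 4 did not pass, which is near the 32.4% higher and 30.9% lower of all tested genes. Adar, encoding an editor of duplex RNA, rose 1.85-fold (log2 change 0.89 ± 0.15 SE, adjusted p = 0.0012, limma), and Tnrc6c, another GW182 gene, rose 1.64-fold, from 1.69 and 2.74 RPKM to 3.70 and 3.39 RPKM. Ran, the GTPase that powers exportin-5 among other carriers, fell 2.15-fold, from 34.5 and 34.4 RPKM to 14.7 and 16.9 RPKM (adjusted p = 4.6e-05, limma), while Xpo5 rose. Ddx17, a helicase of the Drosha complex, fell 2.07-fold and Srsf3, a splicing factor that binds primary microRNAs, 1.63-fold. The most abundant of the group was Tsnax, encoding a subunit of the nuclease C3PO, with a mean of 27.4 RPKM and a log2 difference of −0.23 ± 0.09 (SE, adjusted p = 0.059, limma).

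Of 5 tested genes that control precursors, 2 fell over growth and the other 3 did not pass, where 30.9% of all tested genes fell. Trim71, encoding a ubiquitin ligase of the let-7 pathway, fell 2.16-fold, from 10.4 and 11.5 RPKM to 5.28 and 4.67 RPKM (adjusted p = 4.9e-05, limma). Dis3l2, the nuclease that removes uridylated precursors, fell 1.67-fold (adjusted p = 0.00022, limma). Lin28a, which blocks let-7 maturation, was the most abundant at a mean of 18.9 RPKM, with a log2 difference of −0.03 ± 0.09 (SE, adjusted p = 0.77, limma).

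Of 17 silencing effectors, 11 rose over growth, 2 fell and 4 did not pass, where 32.4% of all tested genes rose and 30.9% fell. The median log2 change was 0.44 against 0.02 for all tested genes. Limd1, encoding a scaffold of Argonaute complexes, rose 2.78-fold (adjusted p = 1.3e-05), Pabpc1l, the poly(A)-binding protein gene of the germ line, 2.45-fold (adjusted p = 2.9e-05) and Pan3, of the PAN deadenylase, 2.11-fold (adjusted p = 0.00018, limma in each case). The genes that fell were Pabpc1, by 1.68-fold, and the helicase gene Ddx6, by 1.42-fold. The most abundant was Lsm14b, at 138 to 183 RPKM, with a log2 difference of −0.0034 ± 0.13 (SE, adjusted p = 0.98, limma).

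Rangap1 and Ppp4r1 are genes whose transcripts are known to pair with pseudogene RNA and yield endo-siRNAs in oocytes. Rangap1, which otherwise encodes the GTPase activator of Ran, fell 3.46-fold, from 12.9 and 13.4 RPKM in 10–30 μm to 3.45 and 3.91 RPKM in 60–65 μm (log2 change −1.79 ± 0.12 SE, adjusted p = 1.3e-05, limma), and was 2.55 RPKM in GV oocytes. Ppp4r1 was 5.74 and 7.06 RPKM in 10–30 μm and 5.63 and 5.92 RPKM in 60–65 μm (adjusted p = 0.41, limma). Reads of either gene may be shared with its pseudogenes, so these values are uncertain.

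Methylation of the members was read at their starts (1 kb to either side) and in their bodies (from 2 kb past the start to the gene end), over CpG cytosines with at least 5 reads. At the starts all 8 genes had little methylation in every library. By PBAT the mean over positions was 1.95% at Xpo5, 2.41% at Prkra, 2.46% at Drosha, 2.67% at Tnrc6a, 3.003% at Tnrc6b, 3.10% at Tarbp2, 3.56% at Dicer1 and 3.78% at Dgcr8, against a median of 3.51% over 9771 tested genes. By RRBS all values lay between 0% and 2.28%, the highest being Dicer1 in B of 40–45 μm, where A had 0.850%. The median of the members was 0.773% in 40–45 μm, 0.563% in 50–55 μm and 0.448% in 60–65 μm, against medians over tested genes of 0.360% to 0.606% in the 6 libraries. The order of the members' medians did not hold at a minimum of 1 read, where 60–65 μm was above 40–45 μm. The starts of Drosha, Xpo5 and Prkra are shared with those of 6030458C11Rik, Polh and Dfnb59, which lie 158, 230 and 461 bases away.

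Bodies differed widely. In the PBAT library the mean was 72.2% at Dgcr8 (55 positions), 56.8% at Tnrc6b (399), 56.7% at Tnrc6a (119), 56.0% at Xpo5 (175), 49.4% at Drosha (638) and 43.6% at Dicer1 (258). These lie around the median of 50.4% over 8920 tested genes, with the exception of Dgcr8, which exceeded 95.5% of them. Its covered positions were uneven over 4 equal parts of the body. Parts 1 and 2 had 76.9% (23 positions) and 83.6% (14), and parts 3 and 4 had 59.4% (6) and 56.5% (12). Tarbp2 (7.32%, 19 positions) and Prkra (20.8%, 21 positions) were low, with 2.32% and 11.4% of tested genes below them, but they are the members with the fewest positions, and at 1 read per position the values became 14.6% and 26.4%. Genes that were not tested for expression had a median of 9.37%. The intervals of the pooled calls (95%, Wilson, counting error only) were 67.8% to 76.9% for Dgcr8, 41.0% to 45.5% for Dicer1, 14.2% to 27.7% for Prkra and 3.48% to 12.8% for Tarbp2. PBAT gave 1 library, so that there is no replicate of these values.

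The gain of body methylation with growth could be followed by RRBS at CpG cytosines read in all 6 libraries. Tnrc6b (17 positions) had 2.39% and 0.186% in A and B of 40–45 μm, 29.6% and 22.2% in 50–55 μm and 64.3% and 69.3% in 60–65 μm. Tnrc6a (18 positions) had 4.18% and 4.66%, then 17.0% and 15.1%, then 33.4% and 29.3%. Drosha (18 positions) had 2.17% and 1.48%, then 7.01% and 7.86%, then 13.8% and 16.5%. In each of these genes every class lay above the preceding one without overlap, as in the median of tested genes given below. The share of tested genes with this course was not counted. Dicer1, with 6 such positions, had 4.89% and 0%, then 9.25% and 33.5%, then 19.0% and 11.1%, and its last classes overlapped. The median of 3344 tested genes was 2.23% and 1.59% in 40–45 μm, 13.5% and 14.9% in 50–55 μm and 30.7% and 31.9% in 60–65 μm. At these positions Tnrc6b was above it and Drosha below it in 50–55 and 60–65 μm. So few positions need not stand for the whole body. By PBAT at 60–65 μm the bodies had 49.4% at Drosha, 43.6% at Dicer1, 56.7% at Tnrc6a and 56.8% at Tnrc6b. The PBAT median of tested genes was 50.4%. With 2 libraries against 2 an exact permutation test cannot give a p below 0.33, and none was run. The shared positions were chosen after the data had been seen. Over the positions of each library, Tnrc6a had 15.5% in A and 33.6% in B of 50–55 μm. That class then overlapped 60–65 μm (29.6% and 27.1%), although the class means still rose.

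**Figure D4:**
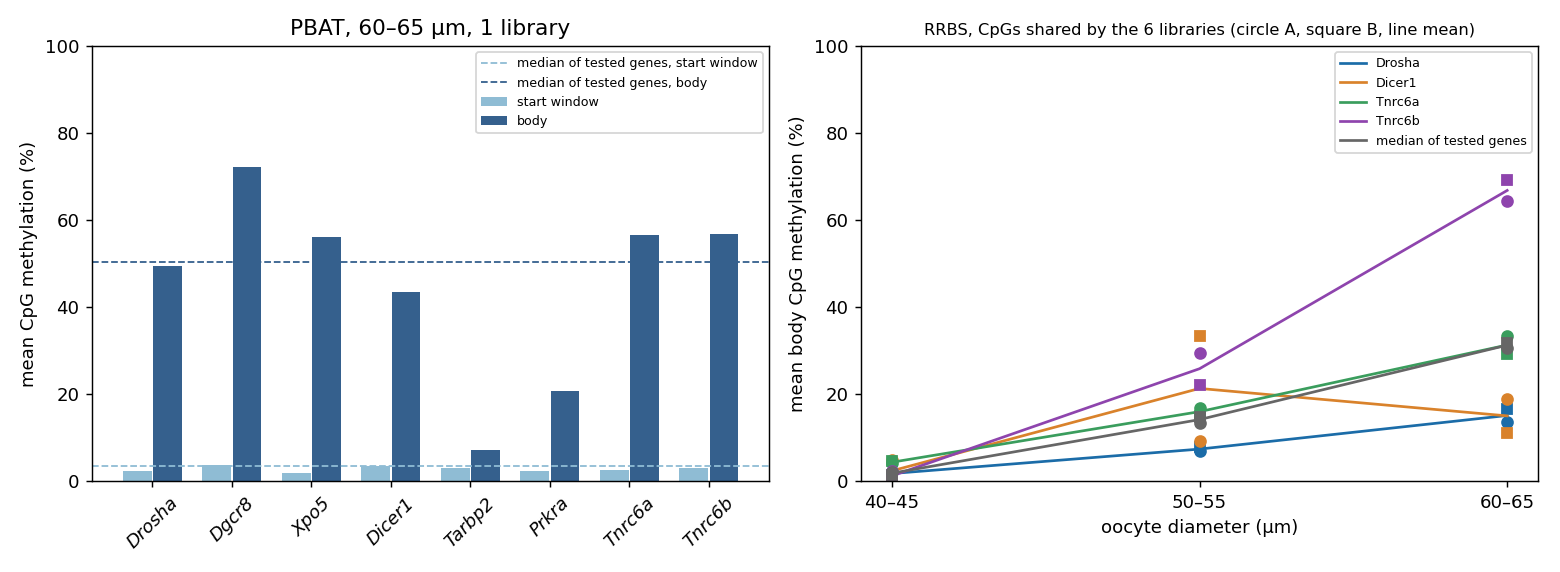
Mean CpG methylation in percent (y axis) of the start window and the body of each gene in the PBAT library, with dashed lines at the median of tested genes (left), and of gene bodies by RRBS at CpGs shared by the 6 libraries, by oocyte diameter (right; circles A, squares B, lines their mean). Starts lie at 3.78% or below, bodies between 7.32% and 72.2%, and Tnrc6b reaches 64.3% and 69.3% by RRBS in 60–65 μm oocytes.

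Along Dicer1 the methylation was uneven. Intron 1 from 2 kb past the start to exon 2 (chr12:104731988-104749952) had 65.2% over 53 positions, the stretch from exon 2 to the end of intron 6 (chr12:104724071-104731987) had 5.70% over 19 positions, and the rest of the gene from exon 7 had 41.3% over 186 positions. In calls, 240 of 386 were methylated in the first stretch (62.2%, 95% Wilson interval 57.2% to 66.9%), 7 of 130 in the second (5.38%, 2.63% to 10.7%) and 547 of 1320 in the third (41.4%, 38.8% to 44.1%). Intron 6, in which the oocyte promoter of Dicer1 is known to lie, had 5.00% but over 5 positions and 32 calls only. The low stretch remained low at 1 read per position, with 11.8% over 117 positions against 70.8% and 41.0% on either side. These stretches were divided after the introns had been inspected.

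Drosha followed another course. Its 5-kb bins were at 6.37% to 26.7% within 20 kb of the start, at 42.3% to 68.1% from 20 to 95 kb, and at 22.8%, 20.1% and 7.88% from 95 kb to the gene end. Low stretches inside the body were seen in other members too. With the body divided into 4 equal parts, Xpo5 had 28.3% in part 2 against 63.4% to 73.9% in the others, and Tnrc6a had 29.0% in part 3 against 48.2% to 67.0%.

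**Figure D5:**
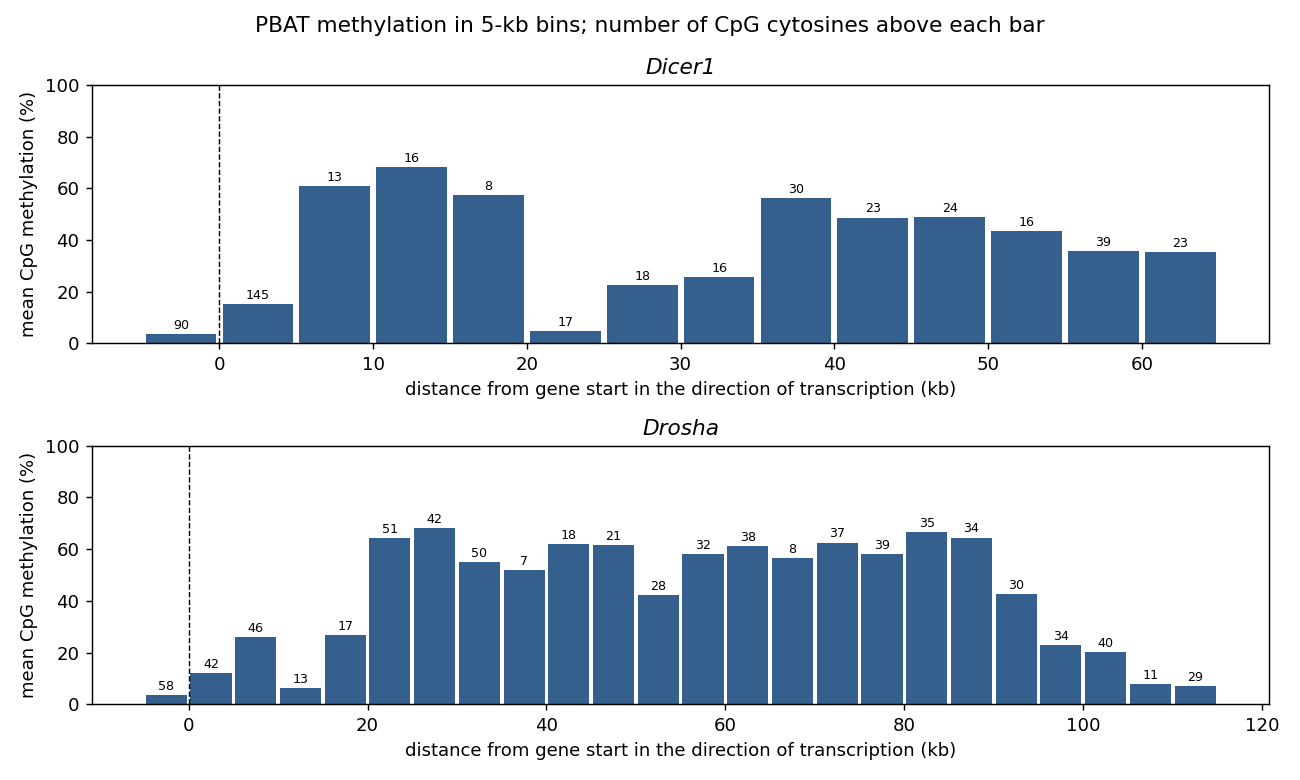
Mean CpG methylation in percent (y axis) along Dicer1 and Drosha in the PBAT library in 5-kb bins by distance from the gene start in kb (x axis; negative values lie upstream), with the number of CpG cytosines of at least 5 reads above each bar. Dicer1 has a bin of 4.90% at 20 to 25 kb between bins of 57.3% and 22.6%, and Drosha is low at both ends.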

How the data were processed

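Expression was measured in 9 columns and methylation in 7 libraries. The authors trimmed RNA-seq reads with Trim Galore 0.2.8 and aligned them to GRCm38 with TopHat2 2.0.9, and they deposited RPKM per reference gene. Which program made this table is not given in the sources used here. For bisulphite reads the authors used Trim Galore 0.3.5 and Bismark 0.14.0 (RRBS) or 0.10.0 (PBAT, with duplicates removed). Per CpG cytosine they deposited the percent methylated and the counts of methylated and unmethylated calls, the percent following from the counts throughout.

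RPKM was scaled by a trimmed mean (30% by ratio, 5% by level), and log2(RPKM + 0.1) of genes with at least 0.5 RPKM in 2 of the 8 growing libraries was fitted in limma 3.58.1 with a variance trend, 1 mean per size class and no replicate block. P-values were adjusted over 10518 genes by Benjamini and Hochberg, with a threshold of 0.05. Whole counts could be recovered from the steps of RPKM for 99.5% of genes above 0 (within 0.001 counts) and entered edgeR 4.0.16 and DESeq2 1.42.0 as alternatives added after the data had been seen. What each count stands for (a read pair, a mate or a segment) is not given in the sources used here, so they were not taken as independent molecules. The limma fit and the methylation means were tested on simulated data.

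Methylation was averaged over cytosines of at least 5 reads, with at least 5 positions per start window and 10 per body (5 for the shared positions, bins and 4 parts, and no minimum for the stretches of Dicer1). All 9393 PBAT positions in the members lay on CpGs of GRCm38. RefSeq promoters matched the genome in 9 of 9 entries for the 8 genes. GENCODE M21 gave the exons of Dicer1.

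All 8 members were described. Pathway genes were named as the most abundant of each group and up to 3 per direction with the largest change among those called over growth, and likeness by the 5 highest r. A gene that this rule names is not reported here. Members and lists were chosen with earlier results of these data known. Python 3.11.15 and R 4.3.3 were used.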

Additional observations from a re-analysis of the deposited data

How the results depend on the processing

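For the members, each of 32 log2 changes was recomputed under 18 alternatives. Of the counts of called genes, those from 10–30 to 60–65 μm stayed within 1.5 times throughout. From 10–30 to 40–45 μm, unscaled RPKM left 1 member called, and leaving out a library gave 1005 to 2892 genes and 1 to 3 members. From 40–45 to 50–55 μm, no filter gave 549 genes and 0 members, DESeq2 1605 genes and 2 members, and leaving out a library 0 to 1630 genes (0 without B of 40–45 μm or A of 50–55 μm) and 0 to 1 members. From 50–55 to 60–65 μm, a pseudocount of 1 gave 8 genes and DESeq2 254, and leaving out a library always 0. With fewer libraries the spread is also estimated from fewer samples, and a lone sample of a class is assumed to vary like the others. The labels do not say that A and B mark a shared batch, and deviations of A libraries from their class means correlated between classes at −0.23 to 0.67 (median 0.35, 6 pairs), so that a common letter was not taken as a pairing, although Drosha and Dicer1 were lower in A in 4 of 4 classes. With the replicate block, 3360 genes and 4 members were called from 10–30 to 40–45 μm, 1924 and 1 from 40–45 to 50–55 μm, 228 and 0 from 50–55 to 60–65 μm and 7293 and 6 from 10–30 to 60–65 μm. The member added over growth was Drosha (adjusted p = 0.018), and Dgcr8 was added in the first step (adjusted p = 0.048). Signs turned for uncalled differences only. Leaving out a library gave a log2 difference for Drosha of −0.24 to 0.066 (main value −0.09; 0.0015 without B of 10–30 μm) in the first step and −0.20 to 0.11 in the second, where 0.05 was obtained without A of 50–55 μm and unscaled RPKM gave 0.0006. For Tarbp2 it was −0.058 to 0.028 in the first step (0.0072 without B of 40–45 μm) and −0.0026 to 0.14 in the last. For Tnrc6a it was −0.18 to 0.16 in the first step (0.15 without B of 10–30 μm), −0.14 to 0.0004 in the last and −0.038 to 0.29 over growth.

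The members' median body methylation of 52.7% by PBAT moved to 59.8% at a minimum of 8 reads, where Tarbp2 and Prkra had too few positions. The median start-window methylation of 0.773% in 40–45 μm moved to 0.625% at 1 read, 0.626% at 10 reads and 0.549% at shared positions, and that of 0.448% in 60–65 μm to 0.705% at 1 read. Leaving out a library gave 0.724% to 0.822%, 0.408% to 0.718% and 0.315% to 0.582% in the 3 classes. The cause of these changes was not tested. Prkra had the fewest counts in expression. In methylation the bodies of Dgcr8, Tarbp2 and Prkra by PBAT had the fewest covered CpG positions, as did that of Dicer1 among those followed by RRBS.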
